A study of Mus musculus with 12 samples.

Results

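The basal effect of the SRF mutation was measured in the striatum of mice (with the nucleus accumbens) by setting 3 arrays titled saline treated mutant against 3 titled saline treated control, 6 of the 12 arrays of the series. Both groups were littermate females aged 10 to 15 weeks, kept 1 to a cage, handled on 5 days and killed 1 hour after an intraperitoneal injection. Genotype and treatment come from the sample titles and the option of a saline injection from the series design, because the treatment text of every sample gives 25 mg/kg cocaine. The description field contradicts the titles (it calls the mutant saline arrays cocaine-treated controls and the control saline arrays cocaine-treated mutants), and the Srf signals given below go with the titles. The labels do not name the allele, the part of Srf that was changed, a Cre driver or the cells it acted in, so what limits the animals as a model is not given in the sources used here. Each array held RNA from the excised striatum of 150 µm sections, with 2 µg of total RNA labelled. The other 6 arrays, 3 mutant and 3 control animals given cocaine, share the estimate of the spread. They are used as a set of animals that do not enter the saline difference.

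Serum response factor (SRF) is a transcription factor that binds a short DNA element, the CArG box. It works with 2 classes of partner: the ternary complex factors such as Elk1 and Elk4, which respond to ERK signalling, and the myocardin-related factors such as Mrtfa, which respond to the pool of free actin. Its textbook targets are immediate early genes such as Fos and Egr1 and genes of the actin cytoskeleton. The striatum consists largely of GABAergic medium spiny neurons, of which the D1 pathway cells make dynorphin and substance P and the D2 pathway cells make enkephalin. Markers of these neurons were bright on every saline array, with log2 signals of 10.60 to 11.03 for Ppp1r1b (the dopamine signalling protein DARPP-32), 11.64 to 11.99 for Penk (proenkephalin), 10.70 to 11.22 for Tac1 (the substance P precursor) and 10.86 to 11.38 for Gad1 (an enzyme of GABA synthesis), so the defining markers of the labelled tissue were present.

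Srf itself was lower in the mutants. Its log2 signals were 7.11, 7.21 and 7.18 in the control arrays 1 to 3 and 5.28, 5.27 and 5.01 in the mutant arrays 1 to 3. All mutant arrays lay more than 1.5 log2 units below every control array. The difference was -1.97 (SE 0.0937, 3.93-fold lower, limma with Benjamini-Hochberg adjustment, adjusted p = 3.2e-07). A dimmer Srf probe set averaged 3.24 in controls and 2.75 in mutants and did not pass the filter. Because the altered part of Srf is not given, whether either probe set reads it was not checked. In whole tissue, fewer cells that make an RNA and less of it per cell cannot be told apart, for Srf and for every gene below. The partners of SRF that passed the filter were Elk4 (-0.16, adjusted p = 0.52), Mrtfa (-0.12, adjusted p = 0.74) and Elk1 (0.06, adjusted p = 0.91), none of which passed the test.

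CArG boxes were present in the promoters of some genes that fell, Srf among them. The windows below are 4 of the 6 called-lower promoters with a box, chosen for Srf itself, for the cytoskeletal genes Actg1 and Vcl described below and for Gstp1, which differed by -0.71 (SE 0.0872, adjusted p = 0.000597). They are the 250 bases before the transcription start in RefSeq (build GRCm38.p6), printed 5′ to 3′ on the gene's strand with the box in capitals. Srf lies on the minus strand at chr17:46556163-46556412 and has 2 boxes, Actg1 (cytoplasmic gamma-actin) on the minus strand at chr11:120348496-120348745, Vcl (vinculin, which links actin to adhesion sites) on the plus strand at chr14:20929148-20929397, and Gstp1 (a glutathione transferase) on the minus strand at chr19:4037913-4038162.
Srf: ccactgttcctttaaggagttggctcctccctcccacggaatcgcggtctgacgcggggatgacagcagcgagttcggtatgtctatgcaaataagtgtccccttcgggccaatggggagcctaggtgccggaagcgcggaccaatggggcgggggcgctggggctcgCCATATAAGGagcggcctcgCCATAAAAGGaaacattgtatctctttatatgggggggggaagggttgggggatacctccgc
Actg1: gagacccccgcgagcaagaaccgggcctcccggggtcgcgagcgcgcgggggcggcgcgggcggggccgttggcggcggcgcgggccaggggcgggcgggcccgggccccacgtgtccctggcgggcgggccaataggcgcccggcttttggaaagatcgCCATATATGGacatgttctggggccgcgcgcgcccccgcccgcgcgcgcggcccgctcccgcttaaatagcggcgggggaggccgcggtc
Vcl: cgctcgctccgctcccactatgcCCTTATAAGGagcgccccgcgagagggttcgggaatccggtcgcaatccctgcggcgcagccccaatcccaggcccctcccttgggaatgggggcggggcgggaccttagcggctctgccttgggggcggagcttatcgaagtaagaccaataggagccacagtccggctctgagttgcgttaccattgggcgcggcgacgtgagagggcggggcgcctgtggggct
Gstp1: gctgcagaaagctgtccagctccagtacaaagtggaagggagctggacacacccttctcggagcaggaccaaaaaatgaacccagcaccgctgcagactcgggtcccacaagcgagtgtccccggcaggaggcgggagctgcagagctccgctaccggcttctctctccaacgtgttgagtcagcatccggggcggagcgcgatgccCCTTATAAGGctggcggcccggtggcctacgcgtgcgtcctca
Relative to the start, the boxes began at positions -82 and -62 in Srf, -90 in Actg1, -227 in Vcl and -43 in Gstp1. On both strands of windows that also take in 50 bases after the start, a box was present in 6 of the 93 called-lower genes with a promoter entry (6.45%, exact 95% binomial interval 2.4 to 13.5), the others being Nr2f6 (an orphan nuclear receptor) and Ppm1b (a protein phosphatase). Among called-higher genes it was present in 2 of 81 (2.47%, 0.3 to 8.64), namely Irf3 and Blvrb. Of all tested genes with an entry 97 of 5445 held one (1.78%), and of all RefSeq promoters given, 488 of 27025 (1.81%). The windows of Tpm1, Flna, Wdr1 and Pdyn held none of these letters, and Actb was not matched to an entry. A match is a description of the sequence and not evidence of binding.

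Across the array, 331 of 11102 probe sets passed the test at an adjusted p under 0.05 (2.98%), 149 higher (1.34%) and 182 lower (1.64%) in mutants. With each array centred on its median the split was 164 higher and 159 lower, so the excess of falls depends on the scaling. At an unadjusted p under 0.05 there were 1731. Taking for each gene the brightest of its probe sets, 101 of 6651 genes rose (1.52%) and 127 fell (1.91%), 3.43% in all. Most changes were modest: the median called change was 0.60 upward and -0.58 downward on the log2 scale, and 25 probe sets rose and 19 fell by at least 1 log2 unit. The mutant and control arrays did not overlap for any of the 331, against 2099 of all probe sets tested (18.9%). A call made on these same arrays favours such a separation, so it is no separate support for the calls. The arrays themselves were alike, with correlations of 0.986 to 0.993 within a saline group and 0.983 to 0.989 between the groups, and medians of 3.75 to 3.78. Leaving out control array 3 reduced the calls to 219 and leaving out mutant array 3 to 216, while the 6 saline arrays fitted alone gave 152. The titles call the samples biological replicates. The p-values rest on the spread between the 3 arrays inside each group, pooled over all 12 arrays and moderated by limma.

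**Figure D1:**
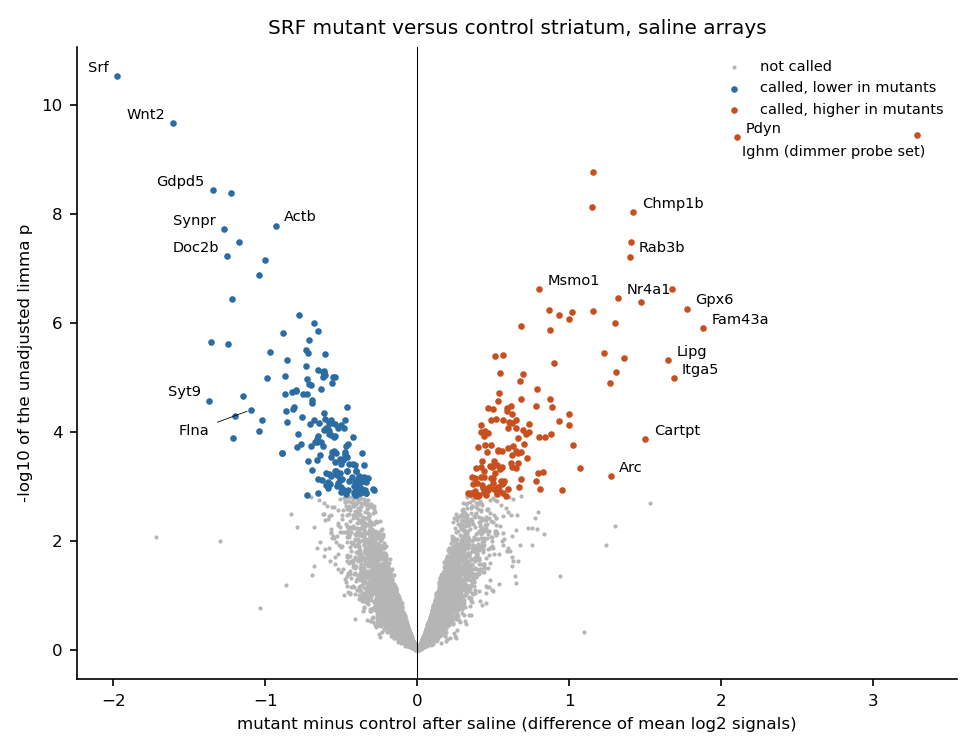
Each point is 1 of the 11102 tested probe sets, with the mutant minus control difference after saline (log2) on the horizontal axis and -log10 of the unadjusted limma p on the vertical axis; blue points are the 182 called lower and orange points the 149 called higher. Of the called points Srf (-1.97) and Wnt2 (-1.61) stand furthest left, and Pdyn (2.10) and the dimmer Ighm probe set (3.29) furthest right.

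The cytoplasmic actins fell together with a few of their binding proteins, while most of the actin machinery did not pass the test. Actg1 had log2 signals of 11.18, 11.36 and 11.30 in controls and 10.12, 10.14 and 9.90 in mutants, which differed by -1.23 (SE 0.0873, adjusted p = 6.52e-06). Actb (beta-actin) had 11.84, 11.74 and 11.72 against 10.90, 10.89 and 10.72, a difference of -0.93 (SE 0.0743, adjusted p = 1.8e-05). In both genes the groups were separated by more than 0.8 log2 units with little spread inside either. A dimmer Actb probe set read the opposite way at 0.61 (adjusted p = 0.18), its controls ranging from 7.25 to 8.24, so the Actb result rests on the brighter one. The smooth and skeletal muscle actins gave no call, with Acta2 at -0.14 (adjusted p = 0.80) and Acta1 at 0.06 (adjusted p = 0.93).

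Tpm1 (tropomyosin 1, which lies along actin filaments) fell from 7.64, 7.61 and 7.62 to 6.52, 6.26 and 6.58, a difference of -1.17 (SE 0.0993, adjusted p = 2.77e-05). A dimmer Tpm1 probe set gave -0.31 (adjusted p = 0.15). Flna (filamin A, a filament cross-linker) fell from 5.30, 5.45 and 5.84 to 4.62, 4.26 and 4.42, a difference of -1.10 (SE 0.178, adjusted p = 0.00444). These 2 were the called members (14.3%, against 3.43% of all genes) among 14 tested tropomyosins, filamins, actinins and myosins. The list had a median change of -0.13, against -0.01 over all genes. Tpm3 differed by -0.02 (adjusted p = 0.94) and Tpm2 by 0.50 (adjusted p = 0.052), so 1 of these 3 tropomyosins passed.

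Of 30 tested genes of actin turnover 3 fell and 0 rose (10% called, against 3.43% of all genes), with a median change of -0.05. Wdr1, a cofactor of actin disassembly by cofilin, fell by 0.49 on the log2 scale (SE 0.1, adjusted p = 0.0181), and a second of its 3 probe sets gave -0.61 (adjusted p = 0.0016). Cap2, a cyclase-associated actin-recycling protein, differed by -0.35 (adjusted p = 0.0326) and Arpc1a, a subunit of the Arp2/3 complex that nucleates branched filaments, by -0.34 (adjusted p = 0.0349). Cfl1 (cofilin, -0.24, adjusted p = 0.13), Pfn1 (profilin, 0.42, adjusted p = 0.072), Cap1 (-0.68, adjusted p = 0.11) and the formin Diaph2 (-0.83, adjusted p = 0.078) were not called. The calls of Wdr1, Cap2 and Arpc1a could be lost when 1 array was left out. Their differences then stayed between -0.58 and -0.42, -0.42 and -0.31, and -0.36 and -0.29, in that order. Wdr1 was no longer called without control array 1 or 3 or mutant array 3 (adjusted p up to 0.08), Cap2 without any 1 of the 3 controls, mutant array 1 or 2 or cocaine control array 3 (up to 0.117), and Arpc1a in 8 of the 12 fits that each left out 1 array, being called only without control array 1, cocaine control array 1 or 2, or cocaine mutant array 2 (up to 0.132).

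Adhesion to the matrix gave 1 call in each direction among 14 tested integrin and focal adhesion genes (14.3%, against 3.43% of all genes). Vcl fell from 6.44, 6.68 and 6.56 to 6.03, 5.89 and 5.84, a difference of -0.64 (SE 0.0947, adjusted p = 0.00243). Itga5, the alpha subunit of the fibronectin receptor, rose from 3.40, 3.65 and 3.63 to 5.73, 4.93 and 5.07, a difference of 1.69 (SE 0.24, adjusted p = 0.00175). Its control level lay under a log2 signal of 4, where the fold depends on the background correction. None of 19 tubulin, neurofilament and microtubule-associated genes was called by its brightest probe set, although 2 dimmer probe sets of Map4 were (0.53 and 0.48).

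**Figure D2:**
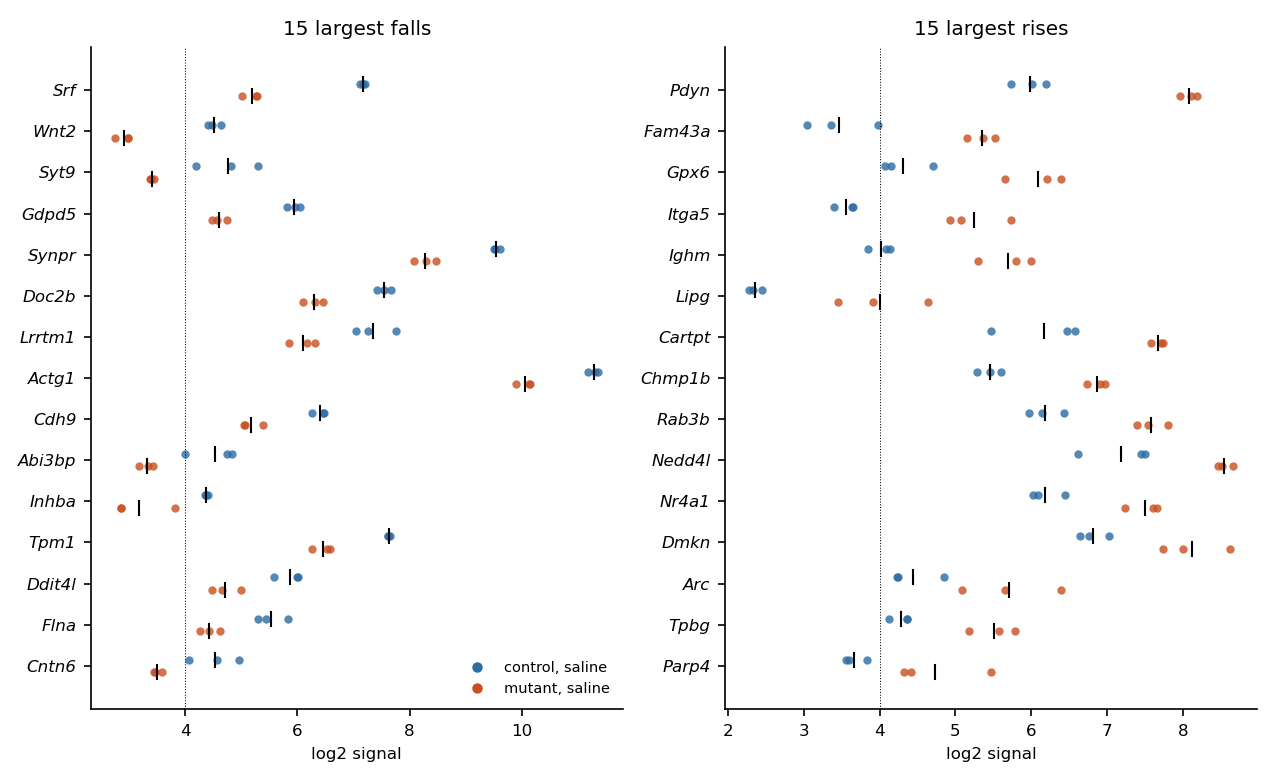
Log2 signals of the 15 genes with the largest called falls (left) and rises (right), 1 row a gene, each point 1 saline array (blue control, orange mutant) and each black bar a group mean of 3; the dotted line marks a log2 signal of 4. Only genes whose groups do not overlap were taken, so the colours are apart in all 30 rows by choice. Wnt2, Syt9, Abi3bp, Inhba and Cntn6 have mutant means, and Fam43a, Itga5, Lipg and Parp4 control means, under the line. Levels of different probe sets are not comparable with each other.

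After Srf, the largest called fall was in Wnt2. This gene of a secreted Wnt ligand fell from 4.64, 4.49 and 4.41 to 2.75, 2.98 and 2.99, a difference of -1.61 (SE 0.0895, adjusted p = 1.08e-06). Inhba, the activin A subunit and an activity-regulated gene, fell from 4.35, 4.42 and 4.38 to 2.85, 2.86 and 3.82, a difference of -1.20 (SE 0.201, adjusted p = 0.00531). Both had mutant means under 4, so their folds depend on the background correction, and mutant array 3 stood nearest to the controls for Inhba. The list of Wnt, TGF-beta and growth factor ligands had 4 falls and 1 rise among 20 tested genes (25%, against 3.43% of all genes, median -0.09). The other called members were Wnt7a at -0.58 (adjusted p = 0.0077), the insulin-like growth factor binding protein Igfbp4 at -0.54 (adjusted p = 0.0196, lost without control array 1 or 2 or mutant array 1 or 2, up to 0.0704) and Tgfa, a ligand of the EGF receptor, at 0.68 (adjusted p = 0.00328).

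Vesicle and exocytosis genes moved in both directions, 3 up and 2 down among 26 tested (19.2% called, against 3.43% of all genes, median 0.09). Synpr (synaptoporin, a synaptic vesicle membrane protein) fell from 9.52, 9.61 and 9.51 to 8.08, 8.29 and 8.47, a difference of -1.27 (SE 0.103, adjusted p = 1.91e-05). Doc2b, a calcium sensor of vesicle release, fell from 7.42, 7.67 and 7.54 to 6.31, 6.46 and 6.10, a difference of -1.25 (SE 0.112, adjusted p = 4.43e-05), and its second probe set by 1.04. For both genes every mutant array was about a unit or more below every control array. The relative Syp (synaptophysin) went the other way, from 8.80, 8.68 and 8.47 to 9.40, 9.12 and 9.54, a difference of 0.70 (SE 0.134, adjusted p = 0.0114, lost without control array 3 or mutant array 3 at up to 0.0554). Rab3b, a vesicle-associated GTPase, rose from 6.44, 5.96 and 6.15 to 7.55, 7.40 and 7.80, a difference of 1.40 (SE 0.125, adjusted p = 4.43e-05), and Syt6 (synaptotagmin 6) by 0.87 (adjusted p = 0.00331). Outside the list Syt9, a synaptotagmin that serves as a calcium sensor of release, fell from 5.30, 4.82 and 4.20 to 3.38, 3.44 and 3.39, a difference of -1.37 (SE 0.214, adjusted p = 0.00341) to a level near background. The brightest uncalled member of the list was Snap25, a core fusion protein, at 0.07 (adjusted p = 0.68).

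Cadherins, neurexins and other adhesion molecules of the synapse gave 4 falls and 2 rises among 20 tested (30%, against 3.43% of all genes, median -0.13). Lrrtm1, a postsynaptic partner of neurexins, fell from 7.76, 7.26 and 7.05 to 5.85, 6.17 and 6.31, a difference of -1.25 (SE 0.155, adjusted p = 0.000695), with -1.36 at a second probe set. Cdh9 (cadherin 9) fell from 6.48, 6.45 and 6.26 to 5.06, 5.08 and 5.39, a difference of -1.22 (SE 0.128, adjusted p = 0.000192). Cntn4 (contactin 4) fell by 0.46 (adjusted p = 0.0114). Cdh4 fell by 0.63 to a mutant mean of 3.47 (adjusted p = 0.0335, lost without any 1 of the mutant arrays, up to 0.115). Outside the list Cntn6, another contactin, fell by 1.04 to a mutant mean of 3.50 (adjusted p = 0.0077). The 2 rises were Tpbg, a membrane glycoprotein with leucine-rich repeats, from 4.12, 4.36 and 4.36 to 5.18, 5.58 and 5.78 (difference 1.23, SE 0.158, adjusted p = 0.000898), and Ntm (neurotrimin, 0.53, adjusted p = 0.0137, lost without control array 3 or mutant array 3 at up to 0.0627). Of 23 axon guidance genes only the semaphorin Sema7a was called, at 0.79 (adjusted p = 0.00248), a share of 4.35% that is near that of all genes.

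The remaining genes among the largest falls were Gdpd5 (a glycerophosphodiesterase), Abi3bp (an extracellular matrix protein) and Ddit4l (an inhibitor of mTOR signalling). Gdpd5 had 5.96, 6.05 and 5.82 in controls and 4.75, 4.56 and 4.49 in mutants, which differed by -1.34 (SE 0.0946, adjusted p = 6.52e-06). Ddit4l differed by -1.15 (SE 0.176, adjusted p = 0.00297) and by -0.88 at a second probe set. Abi3bp differed by -1.21 (SE 0.224, adjusted p = 0.0091), with control array 3 below the other controls, which stood at 4.83 and 4.75. Its mutant mean of 3.31 lay near background.

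Calcium signalling gave only falls, 5 of 26 tested genes (19.2%, against 1.91% of all genes called lower). The median was -0.20, against -0.01 over all genes. Ryr1, a calcium release channel of the endoplasmic reticulum, fell from 6.40, 6.73 and 6.68 to 5.34, 5.59 and 5.92, a difference of -0.99 (SE 0.141, adjusted p = 0.00175). Anxa6, a calcium-dependent membrane-binding annexin, fell from 5.99, 5.82 and 6.07 to 5.12, 5.22 and 5.35, a difference of -0.73 (SE 0.099, adjusted p = 0.00133). These 2 calls held in every fit that tested them. Calb1 (calbindin, a calcium buffer) differed by -0.51 (adjusted p = 0.0326), Camkk2 (a kinase that activates CaM kinases) by -0.58 (adjusted p = 0.0272) and Ryr3 by -0.48 (adjusted p = 0.0441). Each of these 3 calls could be lost when 1 array was left out. Calb1 was lost without control array 1 or 2, any 1 mutant array or cocaine control array 3 (adjusted p up to 0.127, although a dimmer Calb1 probe set gave -0.81 at 0.00422), Camkk2 without control array 2 or 3 or mutant array 2 or 3 (up to 0.11), and Ryr3 in 10 of 12 such fits, being called only without control array 1 or cocaine control array 1 (up to 0.119).

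Ion channels and glutamate receptors gave calls in small numbers, with shares on both sides of the 3.43% of all genes. None of 20 potassium channel genes was called by its brightest probe set. Among 16 sodium, calcium and HCN channel genes Scn3b, a sodium channel beta subunit, fell from 8.76, 8.87 and 8.98 to 8.41, 8.31 and 8.26, a difference of -0.54 (SE 0.0773, adjusted p = 0.00174). Cacng3, an AMPA receptor auxiliary subunit, was also called at -0.46 (adjusted p = 0.0257), but not without control array 2 or 3 or mutant array 1 or 3 (up to 0.106). Of 14 glutamate receptor and scaffold genes only Gria2, the AMPA receptor subunit that limits calcium entry, was called, at -0.47 (adjusted p = 0.0462). Its call held only in the fits without control array 1 or mutant array 1 and was lost in the other 10 (up to 0.158). Of 13 regulators of G protein signalling Rgs14 rose by 0.59 (adjusted p = 0.00426), while Rgs2 was called at a dimmer probe set (-0.59, adjusted p = 0.0074) and not at its brightest (-0.51, adjusted p = 0.0535).

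**Figure D3:**
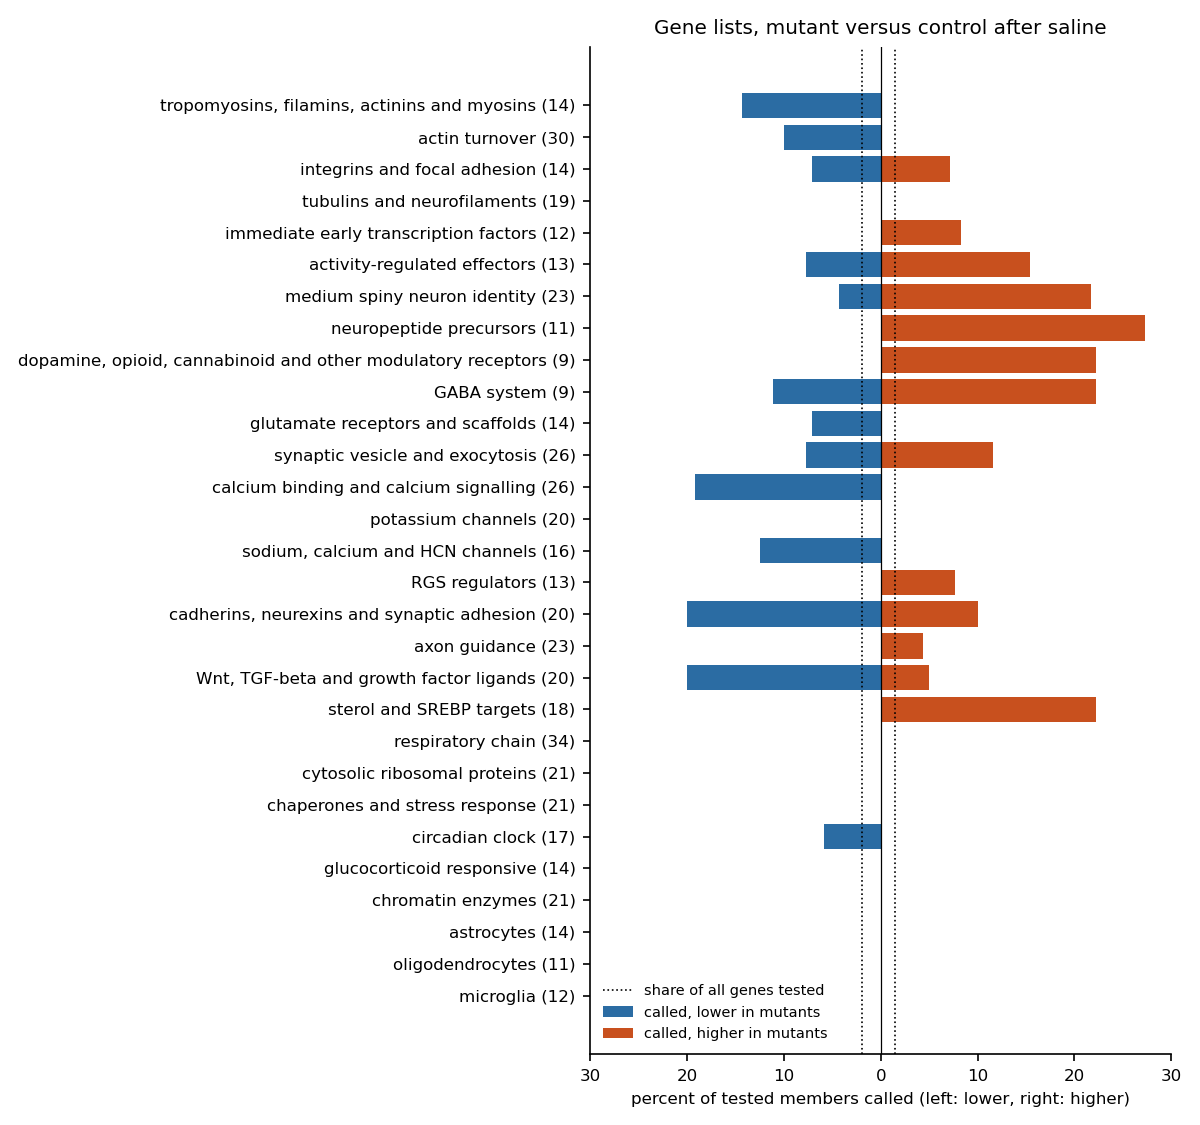
Percent of tested members called lower (blue, left of 0) and higher (orange, right of 0) in mutants after saline, for the lists with at least 9 tested members, whose number stands in brackets; dotted lines give the shares of all 6651 genes, 1.91% lower and 1.52% higher. Sterol genes, neuropeptides and modulatory receptors have only rises, calcium signalling and actin turnover only falls, and tubulins, potassium channels, respiratory chain and ribosomal proteins have no call. With so few members, 1 gene moves a bar by several percent.

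The largest rise with a named gene at its brightest probe set was in Pdyn, the precursor of the dynorphin opioid peptides. Its log2 signals were 6.19, 5.74 and 6.01 in controls and 8.11, 8.18 and 7.96 in mutants. Every mutant array exceeded every control array by more than 1.5 units. The difference was 2.10 (SE 0.123, 4.3-fold higher, adjusted p = 1.08e-06). Cartpt, the precursor of the CART peptides, rose from 6.47, 5.47 and 6.58 to 7.73, 7.57 and 7.71 (2.83-fold higher, SE of the log2 difference 0.278, adjusted p = 0.00938). Control array 2 was the lowest for Cartpt, and the groups did not overlap. Tac1 rose from 10.70, 10.86 and 10.75 to 11.18, 11.16 and 11.22, a difference of 0.42 (SE 0.0748, adjusted p = 0.00802). These were the 3 calls among 11 tested neuropeptide precursors (27.3%, against 3.43% of all genes), of which 10 had an estimate above 0 (median 0.23). Penk at 0.23 (adjusted p = 0.15), Sst (somatostatin) at 0.39 (adjusted p = 0.19) and Nts (neurotensin, the member below 0) at -0.53 (adjusted p = 0.26) were not called.

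Pdyn and Tac1 are both products of D1 pathway neurons, but the 4 other markers of these cells that were tested did not pass. Sfxn1 differed by 0.29 (adjusted p = 0.43), Isl1 by 0.15 (adjusted p = 0.39), Zfp521 by 0.03 (adjusted p = 0.95) and Ebf1, from a control mean of 4.19, by -0.18 (adjusted p = 0.33). The D1 list thus had 2 rises among 6 tested genes, of 10 listed. Of 10 listed D2 pathway markers 3 were tested and none was called, with Penk at 0.23, the dopamine receptor Drd2 at 0.08 (adjusted p = 0.80) and Plxdc1 at -0.09 (adjusted p = 0.85). Of 23 genes of medium spiny neuron identity 5 rose and 1 fell (26.1% called, against 3.43% of all genes), with a median of 0.08. Besides the peptides the rises were in Cnr1, the CB1 cannabinoid receptor (0.66, SE 0.122, adjusted p = 0.00929), Pde1b, a calcium-activated phosphodiesterase (0.46, SE 0.0838, adjusted p = 0.0081), and Strn, the calmodulin-binding scaffold striatin (0.49, adjusted p = 0.0311). Cnr1 lay near a log2 signal of 4, with 3.93, 4.36 and 4.51 in controls and 4.97, 4.95 and 4.84 in mutants. The fall was in Ryr3, given above. Strn was lost without control array 1 or 3 or mutant array 1 or 3 (up to 0.115). Cnr1, Pde1b and Tac1 kept their calls without any 1 array but lost them with the saline arrays fitted alone (adjusted p = 0.088, 0.074 and 0.059). Ppp1r1b, at -0.22, did not pass (adjusted p = 0.29).

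The enzymes of GABA synthesis both rose. Gad1 had 10.99, 10.95 and 10.86 in controls and 11.29, 11.38 and 11.32 in mutants, which differed by 0.40 (SE 0.0764, adjusted p = 0.0123), and 0.56 at a second probe set (adjusted p = 0.000925). Gad2 had 6.45, 6.56 and 6.52 against 7.20, 6.99 and 7.72, a difference of 0.79 (SE 0.174, adjusted p = 0.0266). The mutants were above the controls in every array for both genes. The Gad1 call of the brightest probe set was lost without control array 3 or mutant array 2 (adjusted p up to 0.0592), and that of Gad2 without any 1 control or mutant array 3 (up to 0.0769). Of the other 7 tested genes of the GABA system Gabrd, an extrasynaptic receptor subunit, was called at -0.34 (adjusted p = 0.0456), a call kept in only 1 of 12 fits, the one without mutant array 2 (up to 0.162). The catabolic enzyme Abat differed by 0.24 (adjusted p = 0.095). Modulatory receptors had 2 rises among 9 tested (22.2%, against 3.43% of all genes), Cnr1 and the orphan receptor Gpr12 at 0.81 (adjusted p = 0.0417). The Gpr12 call was lost in 9 of 12 fits and kept without control array 1 or mutant array 1 or 2 (up to 0.129).

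No immediate early gene was called lower in the saline mutants. The list of inducible transcription factors had 1 rise and 0 falls among 12 tested members (8.33%, against 3.43% of all genes), with a median of 0.10. Nr4a1, an inducible orphan nuclear receptor, rose from 6.44, 6.08 and 6.02 to 7.66, 7.23 and 7.61, a difference of 1.32 (SE 0.137, adjusted p = 0.00019), and held in every fit run. Fos had 5.17, 3.71 and 4.14 in controls and 5.65, 5.18 and 6.78 in mutants, which differed by 1.53 without passing the test (SE 0.394, adjusted p = 0.0588). Single arrays moved Fos both ways: the difference was 1.08 (adjusted p = 0.18) without mutant array 3, the highest, and it passed without control array 1 (1.94) or mutant array 2. Junb differed by 0.73 (adjusted p = 0.11), ranging from 0.46 without mutant array 3 to 0.91 without control array 1, where it passed. Egr1, with overlapping groups of 9.63, 9.33 and 9.16 against 9.17, 9.23 and 9.38, differed by -0.11 (95% interval -0.35 to 0.13, adjusted p = 0.72). Egr2 differed by -0.16 (adjusted p = 0.52), from saline control signals of only 4.04, 4.10 and 3.86, against a control mean of 7.87 after cocaine. Egr4 was lower still in the saline controls, at 2.12, 1.87 and 1.72. At such levels a fall can hardly be seen, so the lack of a call after saline says little about Egr2 or Egr4. For comparison, Fos lay between 3.71 and 6.78 on the saline arrays and between 8.06 and 9.68 on the cocaine arrays.

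Among 13 tested activity-regulated effectors 2 rose and 1 fell (23.1% called, against 3.43% of all genes), with a median of 0.28. Arc, a regulator of AMPA receptor trafficking, had 4.84, 4.24 and 4.23 in controls and 5.66, 5.08 and 6.40 in mutants, which differed by 1.27 (SE 0.284, adjusted p = 0.0302). Mutant array 3 was again the highest, and without it the difference was 0.93 (adjusted p = 0.089); the call was also lost without control array 2 or 3 or mutant array 1 (up to 0.108). Plk2, an activity-induced kinase, rose from 8.28, 8.40 and 8.36 to 8.89, 8.80 and 8.96, a difference of 0.54 (SE 0.0814, adjusted p = 0.00275). The fall was in Inhba. Dusp1, a phosphatase of MAP kinases, differed by 0.84 and was not called (adjusted p = 0.13). Its mutant array 3 stood at 8.41 against 7.53 and 6.97, and the difference was 0.45 without that array and 1.17, which passed, without mutant array 2.

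**Figure D4:**
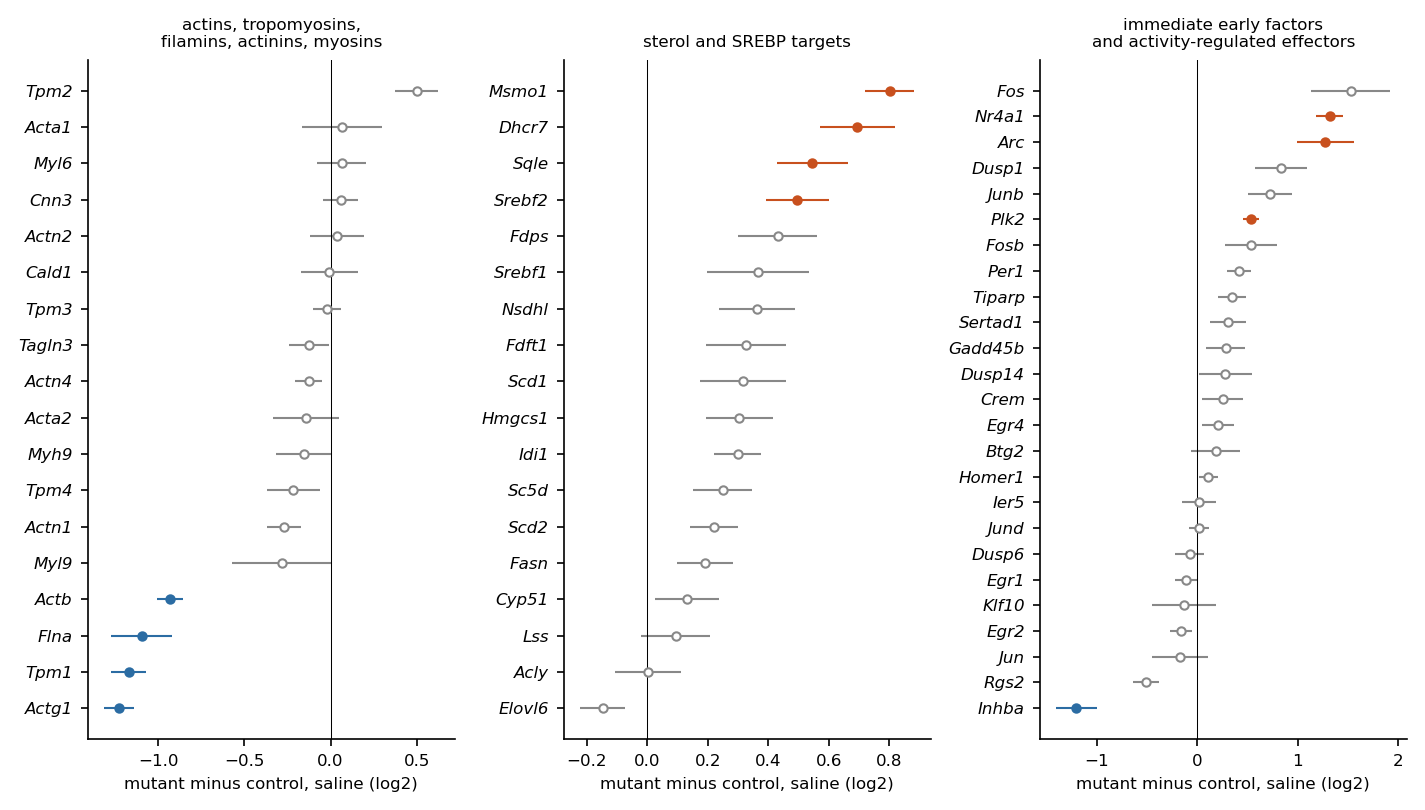
Mutant minus control differences after saline (log2) with their standard errors, 1 row a gene, for actins and filament proteins (left), sterol genes (middle) and activity-regulated genes (right); filled points passed the test and open points did not. In the left panel Actg1, Tpm1, Flna and Actb fell and no gene rose, whereas 17 of the 18 sterol genes lie above 0.

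Genes of sterol synthesis lay mostly above 0. Of 18 tested 4 rose and 0 fell (22.2% called, against 3.43% of all genes). An estimate above 0 was seen for 17, against 47% of all genes, and the median was 0.31 against -0.01. Msmo1 (a demethylase of cholesterol synthesis) rose from 8.24, 8.41 and 8.31 to 9.04, 9.10 and 9.22, a difference of 0.80 (SE 0.0806, adjusted p = 0.000138). Dhcr7, the last enzyme of the pathway, rose from 5.23, 5.41 and 5.37 to 6.10, 5.81 and 6.19, a difference of 0.69 (SE 0.123, adjusted p = 0.00753). Both calls held without any 1 array. Sqle (squalene epoxidase) rose by 0.54 (adjusted p = 0.0236) and Srebf2, the transcription factor that drives the pathway, by 0.50 (adjusted p = 0.0216). Sqle was lost without control array 2 or 3 or mutant array 3 (up to 0.0917) and Srebf2 without control array 1 or 3 or mutant array 1 or 3 (up to 0.0897). Hmgcs1 (0.30, adjusted p = 0.20), Idi1 (0.30, adjusted p = 0.06) and Fdps (0.43, adjusted p = 0.11) were among the members not called. Cyp51 was called at a dimmer probe set (0.65, from a control mean of 3.55) and not at its brightest (0.13). Stard4, a sterol transfer protein outside the list, rose by 0.68 (adjusted p = 0.0141, lost without control array 2 or 3 at up to 0.0548).

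Several of the largest rises belonged to none of these groups. Fam43a, of little known function, rose from 3.05, 3.98 and 3.36 to 5.52, 5.15 and 5.36, a difference of 1.88 (SE 0.22, adjusted p = 0.000418). Gpx6, a glutathione peroxidase, rose from 4.71, 4.07 and 4.15 to 6.39, 6.20 and 5.66, a difference of 1.77 (SE 0.192, adjusted p = 0.00026). Lipg (endothelial lipase) rose from 2.33, 2.45 and 2.28 to 3.91, 3.45 and 4.64, a difference of 1.65 (SE 0.218, adjusted p = 0.00109). The control means of Fam43a and Lipg were under 4, so their folds depend on the background correction. Nedd4l (a ubiquitin ligase) rose by 1.36 (SE 0.179, adjusted p = 0.00104), Chmp1b (a subunit of the ESCRT-III membrane-remodelling complex) by 1.42 (SE 0.108, adjusted p = 1.11e-05) and Dmkn (the secreted protein dermokine) by 1.31 (SE 0.182, adjusted p = 0.00159). Nedd4l and Chmp1b each had a second probe set called the same way. Parp4, at 1.07 (adjusted p = 0.0233), was called only with both control arrays 2 and 3 present (0.0755 and 0.0839 without either) and had mutant array 3 at 5.46 against 4.32 and 4.41.

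The immunoglobulin heavy chain gene Ighm, normally a product of B cells, gave the largest change of any probe set. Its dimmer probe set read 3.13, 2.76 and 2.39 in controls and 6.34, 6.12 and 5.69 in mutants, which differed by 3.29 (SE 0.191, adjusted p = 1.08e-06), from a control mean under 4. The brighter one averaged 4.02 ± 0.151 (SD, n = 3) in controls and 5.70 ± 0.358 in mutants, which differed by 1.68 (SE 0.169, adjusted p = 0.000138). Both probe sets separated the groups on all 6 arrays. Cd4, a T cell and macrophage surface protein, was called at both its probe sets (0.65 and 0.88), the brighter call being lost without control array 2 or mutant array 1 (up to 0.0588). A part of B cells in this result was not tested.

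Markers of other cell types gave few calls, but at the 3.43% called of all genes lists this short would hold few or none. None of 14 astrocyte, 11 oligodendrocyte, 12 microglia, 7 endothelium and pericyte, 6 GABA interneuron, 3 oligodendrocyte precursor and 2 septal, pallidal or thalamic markers was called by its brightest probe set, and mean log2 signals over the list ranged from 7.04 to 7.17 in the mutants for astrocytes, with a control maximum of 7.05. Gfap, the astrocyte filament that rises in reactive astrocytes, differed by 0.80 without a call (adjusted p = 0.076), with 4.25, 4.30 and 4.23 in controls and 4.87, 4.71 and 5.58 in mutants. Its dimmer probe set was called at 1.26 (adjusted p = 0.00203), from a control mean of 3.28, under a log2 signal of 4. After cocaine neither Gfap probe set was called, at -0.02 for the brighter (adjusted p = 0.97) and 0.33 for the dimmer (adjusted p = 0.40). Mutant array 3, the highest saline array for Gfap, was also the highest for Fos, Junb, Dusp1, Arc and Gad2. Of 4 tested genes of glial activation (median 0.43) Cd68, a lysosomal protein of phagocytes, was called at 0.67 (adjusted p = 0.0403), but in only 3 of 12 fits, those without cocaine control array 2 or 3 or mutant array 1 (up to 0.144).

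Of 4 tested markers of cortical and claustral projection neurons 2 fell (50%, against 3.43% called of all genes). They were Mef2c at -0.64 (adjusted p = 0.0154, lost without control array 2 or mutant array 3 at up to 0.0614) and Lamp5 at -0.61 (adjusted p = 0.00743). The other 2, Stx1a at -0.19 and Nptx1 at 0.47, were not called. The remaining cortical markers on the array, Neurod6 and Tbr1 among them, did not pass the filter, and the part of dissection in these falls was not tested. Ttr, made by choroid plexus and the single tested marker of that tissue, stood at 5.57 in mutant array 2 and at 2.85 to 3.49 on the other saline arrays (adjusted p = 0.79). No blood marker passed the filter, and the single cholinergic marker, Lhx8, differed by 0.08.

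Several further groups gave no call by the brightest probe set: 0 of 34 respiratory chain genes (median 0.05), 0 of 21 cytosolic ribosomal proteins (0.02), 0 of 21 chaperones (-0.01), 0 of 21 chromatin enzymes (-0.02), 0 of 14 glucocorticoid-responsive genes (-0.15) and 0 of 6 interferon and MHC genes (0.17). At the 3.43% called of all genes, lists of this size would hold few calls or none. At a dimmer probe set the endoplasmic reticulum chaperone Hspa5 (-0.48, adjusted p = 0.043) and the chromatin remodeller Smarca2 (-0.73, adjusted p = 0.00175) were called. Of 17 clock genes only Cry1 was called, at -0.53 (adjusted p = 0.0257), and not without control array 1 or 3 or mutant array 1 or 3 (up to 0.0932). Over all 44 lists, 542 genes were tested, 26 rose and 31 fell, against 228 called of all 6651 genes (3.43%). The lists were chosen with earlier results of these data known, so their share of calls was described and not tested.

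The 6 cocaine arrays do not enter the saline difference but share its estimate of the spread. They mostly gave genotype differences of the same sign for the genes called after saline. There the test called 465 of the 11102 (4.19%), with 252 up (2.27%) and 213 down (1.92%) in mutants. Of the 331 saline calls 323 had the same sign after cocaine (97.6%, against 66.7% of all probe sets tested), and 200 were called the same way, 83 higher and 117 lower. These 200 made up 60.4% of the saline calls and 43% of the cocaine calls. None of the 331 was called in opposite directions. A low shared spread favours a call in both comparisons, so the 200 are not calls from separate data. With each treatment fitted alone, 152 were called after saline, and 112 were called the same way in both. Srf differed by -1.68 after cocaine, Actg1 by -1.27, Pdyn by 2.29 and Wnt2 by -1.65. The cocaine count fell to 253 without cocaine mutant array 1, 264 without cocaine control array 3, 303 without cocaine control array 2 and 306 without cocaine control array 1.

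**Figure D5:**
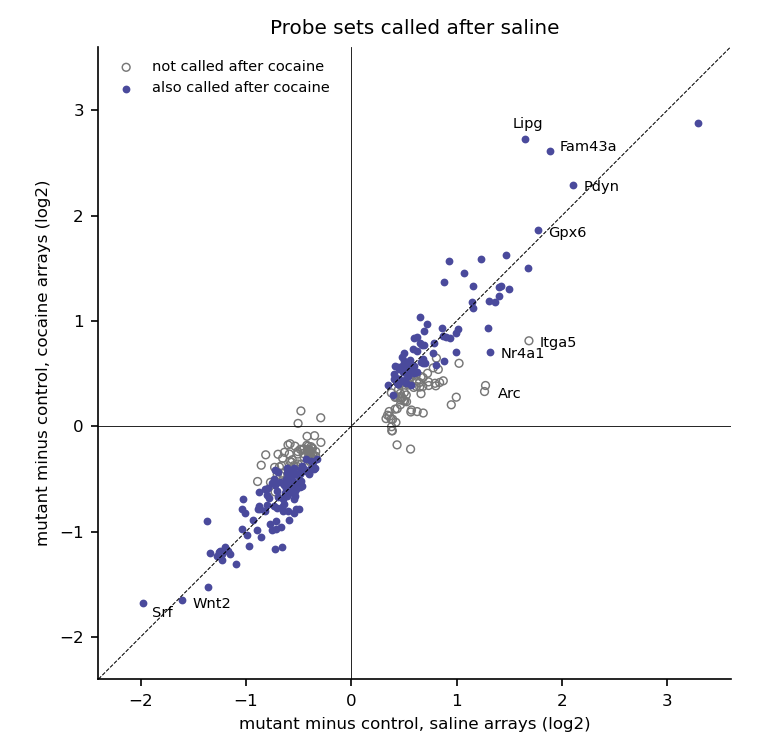
Each point is 1 of the 331 probe sets called after saline, with its mutant minus control difference on the saline arrays (horizontal, log2) and on the cocaine arrays (vertical, log2); filled points, 200 in all, were also called after cocaine, and the dashed line marks equal differences. All but 8 points have the same sign on both axes, and Itga5 and Arc lie under the line.

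Tested directly, the saline and cocaine genotype effects differed for 8 probe sets (0.0721%), and 0 of the 331 saline calls were among them by limma. At an unadjusted p under 0.05 there were 553 of the 11102 tested, about the share that this threshold gives without any true difference. Of these, 41 were among the 331 saline calls. The number called was 5 without cocaine control array 1, 2 or 3. The difference in Arc was 1.27 after saline and 0.39 after cocaine (adjusted p = 0.55), in Nr4a1 1.32 and 0.70, and in Itga5 1.69 and 0.81 (adjusted p = 0.085), without a called difference between treatments for any of these 3. The reverse held for Egr1, which differed by -0.11 after saline and by -0.82 after cocaine (adjusted p = 0.00109), and whose difference between treatments was not called either.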

How the data were processed

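Gene expression was measured on 12 Affymetrix mouse arrays, 3 for each combination of genotype and treatment in the titles. Values are the deposited log2 signals, for which the submitters' processing notes list GCRMA and R 2.4.1. The log base was read from the range of the values, 1.26 to 13.1. GCRMA sets arrays to a common level and compresses dim signals. No scan date or batch was used, and array number limits the precision.

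Of 22690 probe sets, 64 controls were left out and the 11102 with a log2 signal above 4 in at least 3 of the 12 arrays were tested. The platform annotation gave 20393 probe sets 1 symbol, 691 several and 1606 none, and only the first were named. Group means were fitted with limma 3.58.1 in R 4.3.3 over all 12 arrays (8 residual and 4.71 prior degrees of freedom), two-sided, with Benjamini-Hochberg adjustment and a call at 0.05. The fit was tested on simulated data. A gene was represented by its brightest probe set. Symbols were checked by Entrez identifier in RefSeq (GRCm38.p6).

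Named were Srf, the 15 largest called rises and falls with groups that do not overlap, up to 5 called members of each list, the brightest uncalled member of each function list with a call, all tested actins and D1 and D2 markers, and genes whose effect differed between treatments. Other named genes were chosen after their values were seen. The comparison and the 44 gene lists were chosen with earlier results of these data known. Replicate numbers did not pair the arrays (correlations of deviations -0.145, -0.13 and -0.134). Alternatives were other filters, array weights, a trended prior, quantile normalization, median centring, saline arrays alone, a replicate block and leaving out each array.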

Additional observations from a re-analysis of the deposited data

Results flagged for a closer look

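In 7 named genes the genotype effect differed between saline and cocaine arrays by the limma test of the difference itself, given here as saline effect minus cocaine effect (log2). None of the 7 was called after saline. Egr2 had the largest value, 3.94, with a genotype effect of -0.16 after saline and -4.10 after cocaine. Its second probe set gave 4.31, from -0.80 and -5.11. Egr4, another immediate early factor, had 2.82, from 0.21 and -2.61, and its saline levels were near 2, close to background. The somatostatin receptor Sstr2 had -1.85, from 0.50 and 2.35. The RNA polymerase I factor Taf1a had -1.56, from -0.09 and 1.48. Tinf2, a telomere protein, had -1.25, from 0.06 and 1.31. The orphan receptor Gpr19 had -1.12, from 0.13 and 1.24. The zinc finger gene Zfp948 had -0.98, from -0.01 and 0.97.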

How the results depend on the processing

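Srf remained called in every fit run, between -2.02 and -1.89 with single arrays left out. The number of probe sets called ranged from 216 to 350 when single arrays were left out, and was 152 when the saline arrays were fitted alone, a fit with fewer arrays to estimate the spread. It was 222 without the filter, 434 with a trended robust prior and 446 with array weights. Those called the same way after cocaine numbered 138 to 202 with single arrays left out and 112 with each treatment fitted alone. Genes called among the lists numbered 38 to 61 and 30 in the same 2 settings, 76 with array weights and 81 with the trended prior. Probe sets whose effect differed between treatments numbered 5 to 8 with single arrays left out, 5 without the filter, 9 with array weights and 10 with the trended prior. The share of called-lower promoters with a CArG box was 15.1% when 1 mismatch was allowed, against 13.6% of called-higher promoters and 10.7% of all tested genes, so the gap between lower and higher calls rests on exact matches. The fit with the replicate number as a block called 286. Of 102 named genes that were called, 67 were called in all 12 leave-one-out fits and 54 in every fit run, and 0 changed sign. Fitting the saline arrays alone also lost the calls of Inhba, Wnt7a, Cntn4, Cntn6, B3gnt2 and Id4, which leaving out single arrays did not, and dropping the filter lost those of Cartpt and Abi3bp. Of 51 named genes not called, 17 were called in some fit. Signals near or under a log2 value of 4 limit 21 of the rises and 19 of the falls, whose low group averaged under it.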

Other observations

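Several glycosylation enzymes, picked after their values were seen and so not counted as a group, were called. The sialyltransferases St8sia3 (-0.62, adjusted p = 0.00497), St6galnac5 (-0.49, adjusted p = 0.0323) and St3gal5 (-0.39, adjusted p = 0.0322) were called lower after saline, as were Gcnt2, a branching enzyme called at all 4 of its probe sets (-0.50 to -0.87), the mannosidases Man1a (-0.65) and Man1a2 (-0.67), and B3gnt2 (-0.48). The sialyltransferase St8sia5 went the other way, at 0.78 from a control mean of 3.55. St3gal5 was lost without control array 2 or 3 or any 1 mutant array (adjusted p up to 0.113), St6galnac5 without control array 2 or 3 or mutant array 1 or 2 (up to 0.115) and Man1a2 without control array 3 (0.0513).

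Regulators of transcription were also called in both directions, again picked after their values were seen. The retinoid receptor Rxrg rose by 0.93 (adjusted p = 0.000283) and the homeobox gene Six3 by 0.69 (adjusted p = 0.00161). Id4, called at 3 probe sets, fell by 0.52 at its brightest, and the co-repressor Tle4 by 0.56 (adjusted p = 0.00174).

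Genes near Srf on the chromosome were called at about the share of all genes (3.43%). Of the 20 nearest tested genes, 10 on each side, 0 were called by limma. Of the nearest 40, Pla2g7 rose (0.56) and Dazl fell (-0.54), and of the nearest 100 Kdm4b fell as well (-0.60), a call lost without control array 2 or 3 or mutant array 2 (adjusted p up to 0.106).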
